A study of Mus musculus with 2 samples.

Results

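Collagen chain genes were read in single-cell RNA sequencing counts of sorted cells from embryonic mouse skin. The members were all genes named Col, a number, the letter a and a number that had at least 1 unique molecular identifier (UMI, the tag that marks each captured transcript) in either library. Of 28000 genes in the counts, 17821 had a UMI. The name rule matched 44 of the genes, and 43 of these had a UMI, 40 in the HIRA WT library and 41 in the HIRA KO library. The gene without a UMI was *Col10a1*, the collagen of hypertrophic cartilage. The tdTomato+ live cells were sorted from trunk skin of E15.5 embryos, with DAPI as the dead cell marker, and made into 10x Chromium 3′ libraries. There was 1 library for each genotype, made from 1 embryo, so there were no replicates and no test was run. The HIRA WT embryo was TyrCre::Hira wt/wt:tdTomato and the HIRA KO embryo was TyrCre::Hira fl/fl:tdTomato, both of a mixed strain close to C57BL/6J and both carrying the Cre transgene and the tdTomato reporter. The *Tyr* promoter that drives Cre is active in the pigment lineage and also in some other lineages. The sorted cells were of many types, and whether each type came from Cre activity or was carried over in the sort was not tested.

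Collagens are secreted or membrane-bound proteins built of chains wound into a triple helix, and each type is made of its own set of chains. Fibrillar collagens form the fibers of the dermis, network collagens form the sheets of basement membranes, and smaller families bind to fibrils, anchor the epidermis or span the cell membrane. In skin the dermal fibroblasts make most of the fibrillar chains, while endothelial cells, Schwann cells and keratinocytes add basement membrane chains.

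The depth was 7073939 UMIs over 1546 barcodes (median 3961) for HIRA WT and 5049514 UMIs over 846 barcodes (median 5152.5) for HIRA KO. Collagen chains took 24705 UMIs of the 1540 WT cells kept and 40179 UMIs of the 828 KO cells kept. The libraries shared 0 barcodes. Clusters of cells were named from marker genes other than collagens, so that a class is called mesenchymal-like, glial-like or melanoblast-like. Levels are in CPM, the UMIs of a gene scaled to the summed UMIs of the class. Levels of 3′ UMI counts were not divided by gene length, so values are compared for the same gene between cells, not between genes. A chain is called highest in a class where its level with both libraries pooled exceeds that of the other named classes, among the classes with at least 100000 UMIs over both libraries, which leaves out pericyte-like and neutrophil-like cells. This minimum was set in the code and not varied. Intervals are exact 95% intervals and cover counting error only.

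*Hira* itself, which encodes the histone chaperone subunit targeted in the KO, was 13.8 CPM in melanoblast-like cells of WT (35 UMIs) and 3.53 CPM in those of KO (3 UMIs), giving a log2 ratio of -1.97 (interval -4.31 to -0.30). *Hira* in glial-like cells was 11.0 CPM in WT against 7.53 CPM in KO, giving a log2 ratio of -0.55 (-1.89 to 0.68). In mesenchymal-like cells it was 6.97 CPM in WT against 10.8 CPM in KO, giving a log2 ratio of 0.64 (-0.65 to 2.06). The counting interval thus lay below 0 in melanoblast-like cells, from 3 KO UMIs, and spanned 0 in the other 2 classes. The melanoblast-like and glial-like intervals overlap, and a difference between classes was not tested. Tags from the 3′ end can lie outside the deleted exons, whose position is not given in the sources used here. *Xist*, expressed from the inactive X chromosome, was 2422 CPM in melanoblast-like cells of WT against 2.35 CPM in those of KO, so genotype, embryo and sex cannot be told apart.

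Collagen RNA was concentrated in mesenchymal-like cells, was intermediate in glial-like cells and was low in melanoblast-like cells in both libraries. Mesenchymal-like cells (229 in WT, 262 in KO) held 67.8% of all collagen UMIs in WT and 78.4% in KO. Their summed collagen level was 14583 CPM (14363 to 14805) in WT against 20045 CPM (19824 to 20267) in KO, giving a log2 ratio of 0.46 (0.43 to 0.49). Glial-like cells (447 and 254) held 24.6% and 14.7% of the collagen UMIs. Their summed level was 3718 CPM (3625 to 3812) in WT against 4946 CPM (4821 to 5074) in KO, giving a log2 ratio of 0.41 (0.36 to 0.46). This ratio turned to -0.11 when the level of immune and blood cells of the same library was subtracted, and was 0.30 when the subtracted level left out the immune and blood cells with 10 or more collagen UMIs, which are described below. Melanoblast-like cells (535 and 139) had a summed level of 199 CPM (182 to 217) in WT against 716 CPM (661 to 776) in KO, giving a log2 ratio of 1.85 (1.68 to 2.02). The median cell held 63 and 102.5 collagen UMIs in the mesenchymal-like class, 6 and 10 in the glial-like class, and 1 and 4 in the melanoblast-like class.

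**Figure D1:**
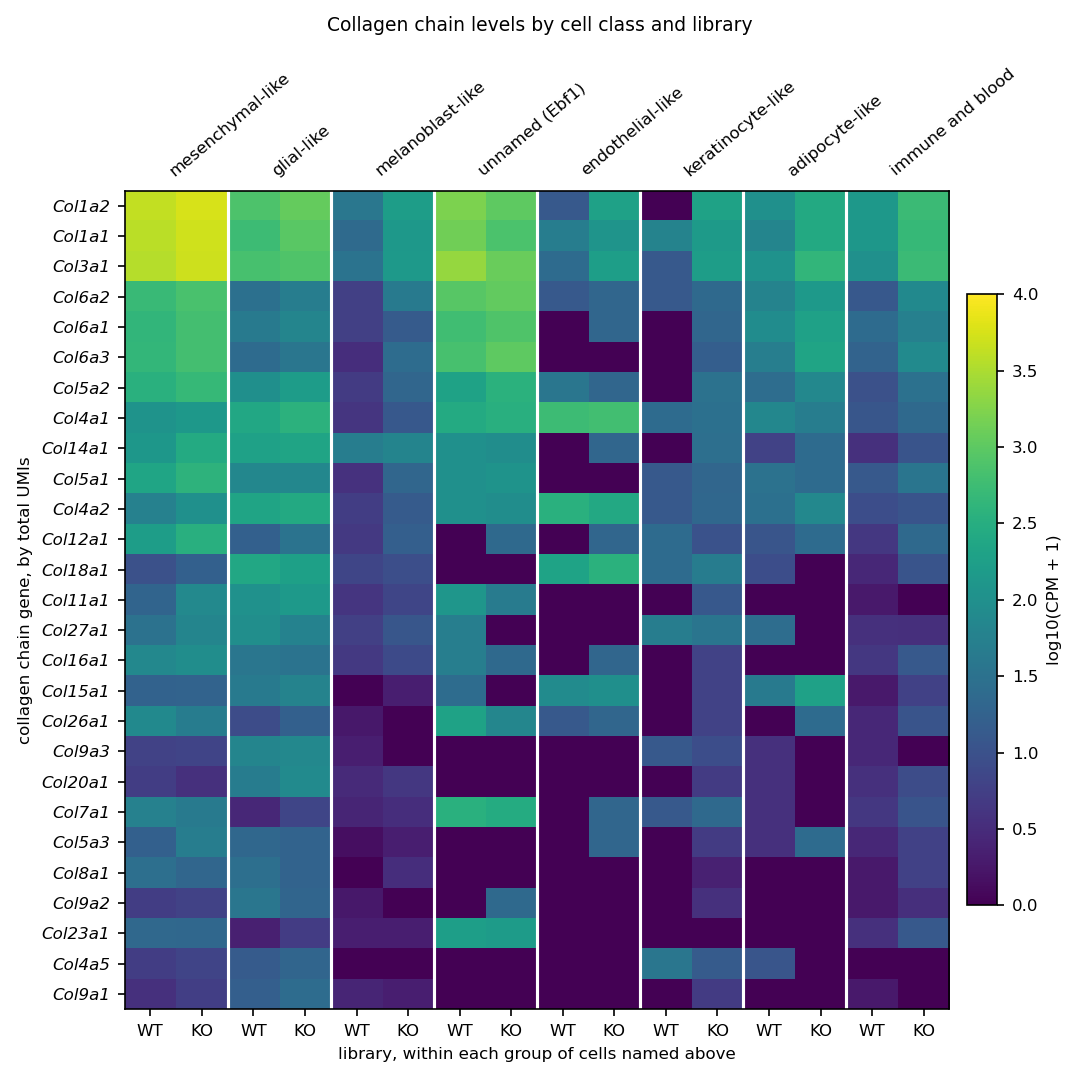
Level of the 27 collagen chains with at least 50 UMIs in all (color, log10 of CPM plus 1) in 8 groups of cells, with the HIRA WT and the HIRA KO library side by side. *Col1a1*, *Col1a2* and *Col3a1* stand highest in mesenchymal-like cells of both libraries, and *Col4a1* stands highest in endothelial-like cells among the groups shown.

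Free RNA was judged from macrophage-like, mast cell-like and erythroid-like cells, pooled as immune and blood cells, in which collagen genes are not known to be expressed at high level. These cells had a summed collagen level of 492 CPM (452 to 535) in WT (243 cells) and 1966 CPM (1832 to 2107) in KO (57 cells), giving a log2 ratio of 2.0 (1.84 to 2.16). The background therefore differed between the libraries, and by about as much as the melanoblast-like sum. Its make-up differed too, with 146 macrophage-like, 92 mast cell-like and 5 erythroid-like cells in WT against 35, 3 and 19 in KO. The collagen sum was 618 CPM in macrophage-like cells of WT against 2732 CPM in those of KO, giving a log2 ratio of 2.14 (1.98 to 2.31), 168 CPM against 607 CPM in mast cell-like cells (1.85; 0.46 to 3.0) and 194 CPM against 473 CPM in erythroid-like cells (1.29; -0.15 to 3.21). Every fold over background and every subtraction rests on this mixture. For *Col1a2* the immune and blood level was 134 CPM in WT against 532 CPM in KO, and for *Col3a1* it was 99.5 CPM and 535 CPM. A few cells carried most of these UMIs: 4 of 243 WT cells with 10 or more collagen UMIs held 69.9% of them, and 8 of 57 KO cells held 78.4%. This threshold was chosen after the values were seen. The 4 WT cells had a summed level of mesenchymal markers of 7081 CPM, with 11 of 12 markers found, *Dcn* the most abundant and *Mfap5* at 0, and a median depth of 10041.5 UMIs. The 8 KO cells had 2101 CPM, with 12 of 12 markers found, *Dcn* again the most abundant, and a median depth of 12157 UMIs. Without these cells the collagen background was 153 CPM in WT against 553 CPM in KO, and the remaining cells still had 62.9 CPM and 193 CPM of the mesenchymal markers.

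A chain was counted as above background in a class when it had at least 20 UMIs there and a level at least 4-fold that of immune and blood cells of the same library. In mesenchymal-like cells 20 of 20 chains passed in WT, where 13.6% of all genes did, and 20 of 24 chains passed in KO, where 17.0% of all genes did. The KO chains that did not pass there were *Col15a1*, *Col18a1*, *Col23a1* and *Col6a6*. In glial-like cells 22 of 25 chains passed in WT (14.8% of all genes) and 11 of 24 in KO (19.0% of all genes). The WT exceptions were the beaded filament chains *Col6a1*, *Col6a2* and *Col6a3*. The 11 KO chains were *Col4a1*, *Col4a2*, *Col5a2*, *Col9a2*, *Col9a3*, *Col11a1*, *Col14a1*, *Col15a1*, *Col18a1*, *Col20a1* and *Col27a1*. With a 2-fold limit the KO count was 18, and the share of all genes passing that limit is not given here. Without the immune and blood cells of 10 or more collagen UMIs, an alternative added after seeing the data, the glial-like counts were 25 in WT and 16 in KO, so the counts depended on a few background cells. The shares of all genes passing against that smaller background are not given here. In melanoblast-like cells 1 of 4 chains passed in WT (7.08% of all genes) and 1 of 6 in KO (11.9% of all genes), and the chain was *Col14a1* in both. With cells thinned to 2000 UMIs the KO count in melanoblast-like cells was 0, with no share of all genes given for that setting.

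Between the libraries, a chain was counted as higher or lower within a class when it had at least 50 UMIs there over both libraries together and a level at least 2-fold apart. In mesenchymal-like cells 4 of 20 chains rose in KO (*Col5a3*, *Col11a1*, *Col14a1* and *Col27a1*), where 3.41% of all genes rose, and 0 fell, where 1.22% of all genes fell. The median log2 ratio of the 20 chains was 0.47, against -0.02 over all 5225 genes read, and 16 chains had a positive ratio. The make-up of the class differed between the libraries, with cluster 3 holding 76.0% of its cells in WT and 40.1% in KO, and cluster 13 holding 14.8% and 47.3%. With the KO clusters weighted as in WT, an alternative added after seeing the data, 0 chains reached 2-fold. The count was 1 with cells thinned to 2000 UMIs, and 1 with at least 500 genes per cell. At the latter setting 136 of the 158 cells of cluster 13 became unnamed and left the class. The shares of all genes past 2-fold are not given for the weighted, filtered and thinned settings. These counts are therefore not read against all genes. *Col5a3* and *Col11a1* met the minimum mostly through their KO UMIs. With at least 25 UMIs in each library, a further alternative added after seeing the data that also drops genes low in 1 library because they changed, 2 of 18 chains rose (*Col14a1* and *Col27a1*; 1.62% of all genes rose), and with at least 50 in each 1 of 15 did (1.32% of all genes). In glial-like cells 1 of 23 chains rose (*Col12a1*; 1.57% of all genes rose) and 0 fell (1.11% of all genes), with a median log2 ratio of 0.45, against -0.03 over all 5678 genes read. The glial-like count of higher chains was 0 with the immune level subtracted or with cells thinned, the latter without a share of all genes. With the immune level subtracted 3 of 21 chains with a value fell in glial-like cells (*Col3a1*, *Col8a1* and *Col9a2*; 5.72% of all genes fell and 27.3% rose). In mesenchymal-like cells 2 of 20 then fell (*Col23a1* and *Col26a1*; 7.44% of all genes). There 4 of 20 rose (*Col5a3*, *Col11a1*, *Col14a1* and *Col27a1*; 31.8% of all genes). The subtraction thus moved many genes past 2-fold. In melanoblast-like cells 3 of 4 chains rose (*Col1a1*, *Col1a2* and *Col3a1*; 1.64% of all genes rose) and 0 fell (1.75% of all genes), with a median log2 ratio of 2.16, against -0.02 over all 5429 genes read. These 3 chains stood below the immune and blood level in both libraries, and with that level subtracted only 1 of the 4 chains kept a value above 0 in both, and 0 rose (34.0% of all genes). With the level of the immune and blood cells under 10 collagen UMIs subtracted instead, 1 of 3 rose (*Col1a2*, log2 ratio 2.08; 37.9% of all genes).

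Type I collagen, the main fibril of dermis, tendon and bone, is made of the chains *Col1a1* and *Col1a2*. In mesenchymal-like cells *Col1a2* was 4241 CPM (4123 to 4362) in WT against 5803 CPM (5684 to 5923) in KO, giving a log2 ratio of 0.45 (0.40 to 0.50). *Col1a1* was 3904 CPM (3791 to 4020) there in WT against 5166 CPM (5054 to 5280) in KO, giving a log2 ratio of 0.40 (0.35 to 0.46). These levels were 31.7-fold and 29.6-fold the immune and blood level in WT, and 10.9-fold for both chains in KO. *Col3a1*, the chain of type III collagen that shares fibrils with type I in skin and vessels, was 3621 CPM (3512 to 3733) in WT against 4875 CPM (4766 to 4985) in KO, giving a log2 ratio of 0.43 (0.37 to 0.48). The 3 chains together held 80.7% of the collagen UMIs of the class in WT and 79.0% in KO, so the make-up by UMIs differed little while the sum was higher in KO.

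Glial-like cells held the same chains at a lower level. There *Col1a2* was 749 CPM (708 to 792) in WT against 1134 CPM (1075 to 1196) in KO, which is 17.7% and 19.5% of its mesenchymal-like level. *Col1a1* was 558 CPM (523 to 596) in WT against 941 CPM (887 to 997) in KO, giving a log2 ratio of 0.75 (0.63 to 0.88). *Col3a1* was 684 CPM (644 to 725) in WT against 797 CPM (747 to 849) in KO, giving a log2 ratio of 0.22 (0.09 to 0.35). Against immune and blood cells the glial-like level of *Col1a2* was 5.59-fold in WT and 2.13-fold in KO, and that of *Col3a1* was 6.87-fold and 1.49-fold. With the immune level subtracted the glial-like log2 ratio was -0.03 for *Col1a2* and -1.16 for *Col3a1*, and without the immune and blood cells of 10 or more collagen UMIs it was 0.47 and 0.02. Against that smaller background the glial-like level of *Col1a2* was 25.7-fold in WT and 8.40-fold in KO, and that of *Col3a1* was 27.8-fold and 6.20-fold. The size and the sign of the subtracted ratios thus depended on a few background cells.

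Melanoblast-like cells held type I and type III chains at a level below that of immune and blood cells. *Col1a2* was 37.1 CPM (29.9 to 45.3) in WT against 168 CPM (142 to 198) in KO, 0.277-fold and 0.316-fold the immune and blood level. *Col1a1* was 22.9 CPM (17.4 to 29.6) in WT against 136 CPM (113 to 164) in KO, 0.173-fold and 0.288-fold. *Col3a1* was 31.9 CPM (25.4 to 39.7) in WT against 140.0 CPM (116 to 168) in KO, 0.321-fold and 0.262-fold. The log2 ratios of KO to WT were 2.18 (1.80 to 2.57) for *Col1a2*, 2.58 (2.11 to 3.06) for *Col1a1* and 2.13 (1.71 to 2.56) for *Col3a1*, against 1.99, 1.84 and 2.43 in immune and blood cells. Without the immune and blood cells of 10 or more collagen UMIs, the melanoblast-like level was 0.836-fold and 1.09-fold the background for *Col1a1*, 1.27-fold and 1.25-fold for *Col1a2*, and 1.30-fold and 1.09-fold for *Col3a1*. The 12 mesenchymal markers summed to 69.0 CPM in melanoblast-like cells of WT against 241 CPM in those of KO, with all 12 found and *Dcn* the most abundant, and their part in the collagen difference was not tested. UMIs of *Col1a1* per UMI of *Col1a2* were 0.921 in mesenchymal-like, 0.745 in glial-like and 0.617 in melanoblast-like cells of WT, and 0.890, 0.830 and 0.811 in those of KO. The melanoblast-like intervals, 0.437 to 0.865 in WT and 0.629 to 1.04 in KO, overlap the glial-like ones. Those were 0.683 to 0.813 in WT and 0.766 to 0.898 in KO.

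**Figure D2:**
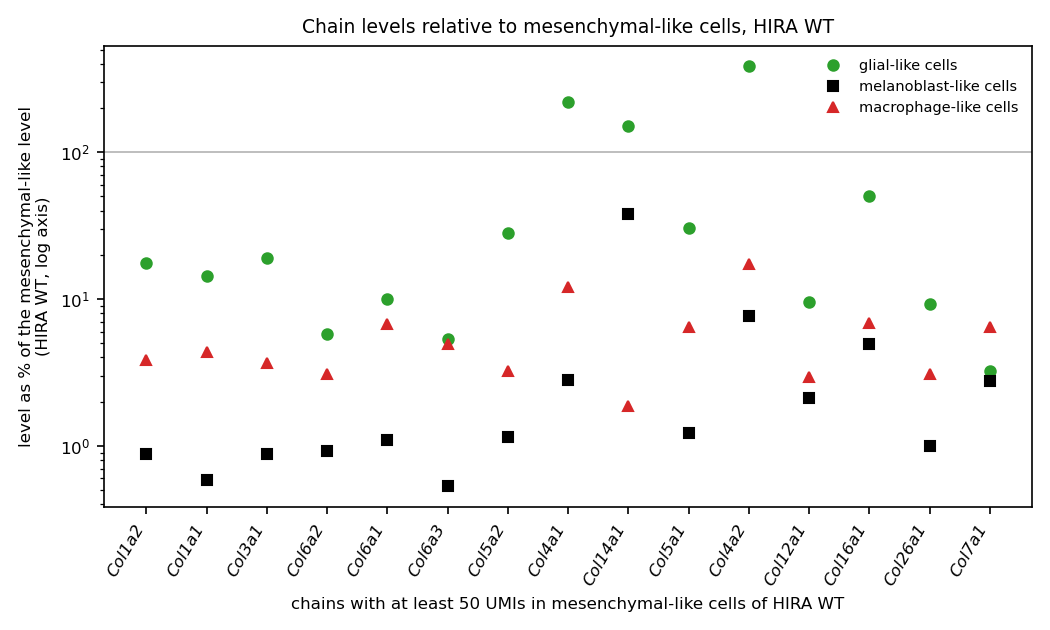
Level of each chain in glial-like, melanoblast-like and macrophage-like cells as a percent of its level in mesenchymal-like cells (log axis), for the chains with at least 50 UMIs in mesenchymal-like cells of HIRA WT, in that library. *Col14a1* in melanoblast-like cells stands at 37.7%, while *Col1a1* stands at 0.586%.

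Shares of cells with a UMI were read with every cell first thinned at random to 2000 UMIs. *Col1a1* was found in 95% of mesenchymal-like cells of WT and 97.3% of those of KO, and in 26.2% and 41.1% of glial-like cells. In melanoblast-like cells the share for *Col1a1* was 5.52% in WT and 24.5% in KO, which is no higher than the 5.80% and 33.9% of immune and blood cells. Before thinning the median depth was 4343 and 5654 UMIs in melanoblast-like cells, and 4065 and 6720 UMIs in immune and blood cells. *Col14a1* behaved differently, with shares of 5.90% and 9.35% in melanoblast-like cells against 0.483% and 0% in immune and blood cells, where the interval of the 0% (56 KO cells) reaches 6.38%.

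Type V and type XI chains, which start fibrils and limit their growth, differed in their main class, with *Col5a1* and *Col5a2* highest in mesenchymal-like cells and *Col11a1* in glial-like cells. *Col5a1* in mesenchymal-like cells was 227 CPM (201 to 257) in WT against 382 CPM (352 to 414) in KO, giving a log2 ratio of 0.75 (0.54 to 0.96). Its partner *Col5a2* was 341 CPM (308 to 377) in WT against 481 CPM (447 to 516) in KO, giving a log2 ratio of 0.49 (0.32 to 0.67). *Col5a1* in glial-like cells was 69.3 CPM in WT against 69.5 CPM in KO, giving a log2 ratio of 0.00 (-0.42 to 0.43), while *Col5a2* was 96.8 CPM and 162 CPM, giving a log2 ratio of 0.74 (0.43 to 1.05). *Col5a3*, a less widespread type V chain, rose in mesenchymal-like cells from 15.7 CPM (9.29 to 24.8; 18 UMIs) to 48.4 CPM (38.1 to 60.5; 76 UMIs), giving a log2 ratio of 1.63 (0.87 to 2.46). With the clusters weighted as in WT the log2 ratio of *Col5a3* was 0.68. Most of its KO UMIs lay in cluster 17, the smallest mesenchymal-like cluster in both libraries, where it was 149 CPM in WT against 234 CPM in KO.

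*Col11a1*, a chain of the thin fibrils of cartilage and tendon, rose in mesenchymal-like cells from 18.3 CPM (11.3 to 28.0; 21 UMIs) to 74.5 CPM (61.6 to 89.2; 117 UMIs), giving a log2 ratio of 2.03 (1.35 to 2.77). It was found in 13 of 229 such cells in WT and in 63 of 262 in KO, and lay mostly in cluster 13. With the clusters weighted as in WT its log2 ratio was 0.71, and with at least 500 genes per cell it was 0.38. At the latter setting 136 of the 158 cells of cluster 13 became unnamed and left the class. Glial-like cells held *Col11a1* at 105 CPM (90.2 to 122) in WT against 146 CPM (126 to 169.9) in KO, its highest level among the named classes. *Col27a1*, a fibrillar chain best known from cartilage, had log2 ratios of opposite sign in these classes, a difference that was not tested. In glial-like cells *Col27a1* was 94.99 CPM (80.6 to 111) in WT against 59.4 CPM (46.4 to 74.96) in KO, giving a log2 ratio of -0.68 (-1.10 to -0.26). In mesenchymal-like cells it rose from 31.3 CPM (22.0 to 43.4) to 64.3 CPM (52.4 to 78.1), giving a log2 ratio of 1.04 (0.47 to 1.63), or 0.84 with the clusters weighted as in WT.

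Type IV collagen forms the network of basement membranes, with *Col4a1* and *Col4a2* as the chains found in nearly all of them. Among the classes above the UMI minimum both had their highest pooled level in endothelial-like cells (21 in WT, 8 in KO), although in KO *Col4a2* was slightly higher in glial-like cells. In endothelial-like cells *Col4a1* was 549 CPM (400.3 to 734) in WT against 607 CPM (412 to 861) in KO. There *Col4a2* was 341 CPM (227 to 494) in WT against 254 CPM (135 to 435; 13 UMIs) in KO. Pericyte-like cells (3 in WT, 5 in KO), which fell under the minimum, had *Col4a1* at 816 CPM (299 to 1776; 6 UMIs) in WT against 533 CPM (305 to 865; 16 UMIs) in KO. Their *Col4a2* level was 544 CPM (148 to 1392; 4 UMIs) in WT against 399.7 CPM (207 to 698; 12 UMIs) in KO, so the intervals of the pericyte-like and endothelial-like levels overlap. Of the 3 largest classes glial-like cells were highest, with *Col4a1* at 246 CPM (223 to 272) in WT against 372 CPM (339 to 409) in KO, giving a log2 ratio of 0.60 (0.40 to 0.79). *Col4a2* was 217 CPM (195 to 241) there in WT against 266 CPM (238 to 297) in KO, giving a log2 ratio of 0.29 (0.07 to 0.52). Unlike the type I and type III chains, these had glial-like levels above the mesenchymal-like ones, at 221% and 275% for *Col4a1* and 383% and 259.8% for *Col4a2*. In mesenchymal-like cells *Col4a1* was 111 CPM (93.0 to 133) in WT against 136 CPM (118 to 155) in KO, giving a log2 ratio of 0.28 (-0.04 to 0.61). *Col4a2* was 56.6 CPM (43.7 to 72.1) there in WT against 102 CPM (87.3 to 119.6) in KO, giving a log2 ratio of 0.86 (0.43 to 1.29). After thinning, *Col4a1* was found in 39.1% of glial-like cells of WT and 49.6% of those of KO, against 1.45% and 3.57% of immune and blood cells. *Col4a5*, a chain of specialized basement membranes such as that of the kidney glomerulus, was 12.9 CPM (7.97 to 19.7) in glial-like cells of WT against 19.3 CPM (12.2 to 28.9) in those of KO, while 3 UMIs put it at 36.1 CPM in keratinocyte-like cells of WT.

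Type VI collagen forms beaded filaments around cells, and its chains *Col6a1*, *Col6a2* and *Col6a3* were mesenchymal-like among the named classes. *Col6a1* was 434 CPM (397 to 474) in WT against 633 CPM (595 to 674) in KO, giving a log2 ratio of 0.54 (0.39 to 0.70). *Col6a2* was 513 CPM (472 to 556) in WT against 703 CPM (662 to 746) in KO, giving a log2 ratio of 0.46 (0.31 to 0.60). *Col6a3* was 445 CPM (407 to 485) in WT against 635 CPM (596 to 676) in KO, giving a log2 ratio of 0.51 (0.36 to 0.67). The 3 chains, which assemble with each other, thus had similar ratios in this class, near the median of 0.47 over the 20 chains read there. In glial-like cells *Col6a1* was 43.5 CPM and 65.3 CPM, giving a log2 ratio of 0.59 (0.10 to 1.07). *Col6a2* was 29.4 CPM and 47.7 CPM there, giving a log2 ratio of 0.70 (0.12 to 1.28), and *Col6a3* was 23.9 CPM and 36.8 CPM, giving a log2 ratio of 0.62 (-0.03 to 1.28). In KO these glial-like levels were 1.20-fold, 0.605-fold and 0.453-fold those of immune and blood cells. Without the immune and blood cells of 10 or more collagen UMIs the same folds were 5.08, 2.97 and 1.91.

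Cluster 18 (10 cells in WT, 13 in KO; leading genes *Ebf1*, *Stmn2*, *Bmp3*, *Rspo3*, *Bmp4* and *Inhba*) was left unnamed. It had 7 of 12 mesenchymal markers raised, but none of these was among its 10 leading genes, while the neuron marker *Stmn2* was. It held type VI chains above the mesenchymal-like level. There *Col6a2* was 922 CPM (649 to 1270) in WT against 1099 CPM (813 to 1453) in KO, and *Col6a3* was 673 CPM and 1009 CPM. This cluster also held *Col7a1*, the chain of the anchoring fibrils that fix the epidermis to the dermis, at 349 CPM (191 to 585) in WT against 292 CPM (155 to 499) in KO. *Col23a1*, a transmembrane chain, was 174 CPM (70.1 to 359) there in WT against 157 CPM (63.1 to 323) in KO. *Col1a1* in contrast was 1345 CPM and 740.2 CPM in cluster 18, below its mesenchymal-like level in both libraries. The cluster was singled out after its values were seen.

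Among the named classes, *Col7a1* was highest in mesenchymal-like cells, at 56.6 CPM (43.7 to 72.1) in WT against 41.4 CPM (31.9 to 52.7) in KO, giving a log2 ratio of -0.45 (-0.97 to 0.07). With the clusters weighted as in WT this ratio was 0.38, since the chain lay in cluster 3, at 73.1 CPM in WT against 94.2 CPM in KO, and had 0 UMIs in cluster 17 of both libraries. *Col8a1*, a short chain found around vessels and in the cornea, was 27.6 CPM (20.1 to 36.9) in glial-like cells of WT against 17.6 CPM (10.9 to 26.9) in those of KO, and 27.9 CPM and 19.7 CPM in mesenchymal-like cells. *Col23a1* in mesenchymal-like cells was 21.8 CPM (14.1 to 32.1) in WT against 21.0 CPM (14.5 to 29.5) in KO. *Col26a1*, a short collagen outside the main families, was 79.2 CPM (63.8 to 97.3) in mesenchymal-like cells of WT against 46.5 CPM (36.4 to 58.4) in those of KO, giving a log2 ratio of -0.77 (-1.23 to -0.31), or -0.41 with the clusters weighted. *Col17a1*, the hemidesmosome collagen of basal keratinocytes, was highest in keratinocyte-like cells (12 in WT, 81 in KO), at 84.3 CPM from 7 UMIs and 31.6 CPM from 24 UMIs.

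FACIT collagens sit on the surface of fibrils, and *Col12a1* and *Col14a1* are the members best known from dermis and tendon. *Col14a1* rose in mesenchymal-like cells from 131 CPM (111 to 153) to 282 CPM (256 to 309), giving a log2 ratio of 1.11 (0.84 to 1.39). *Col12a1* was 167 CPM (144 to 193) in WT against 332 CPM (304 to 362) in KO, giving a log2 ratio of 0.99 (0.75 to 1.24), just under the 2-fold limit. With clusters weighted as in WT the log2 ratios were 0.13 for *Col14a1* and 0.53 for *Col12a1*, so the *Col14a1* value changed more with the weighting. In glial-like cells *Col12a1* rose from 15.9 CPM (10.4 to 23.3; 26 UMIs) to 32.6 CPM (23.2 to 44.6; 39 UMIs), giving a log2 ratio of 1.03 (0.28 to 1.81), with a KO level 1.47-fold that of immune and blood cells. Without the immune and blood cells of 10 or more collagen UMIs this KO fold was 3.39. *Col14a1* was 197 CPM (176 to 219) in glial-like cells of WT against 216 CPM (190.4 to 244) in those of KO, giving a log2 ratio of 0.13 (-0.11 to 0.38). In melanoblast-like cells *Col14a1* was 49.3 CPM (41.0 to 58.7; 125 UMIs) in WT against 63.5 CPM (47.7 to 82.9; 54 UMIs) in KO, giving a log2 ratio of 0.37 (-0.12 to 0.84). These levels were 18.6-fold and 6.45-fold those of immune and blood cells, which held 3 and 4 UMIs of the gene.

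Of the other FACIT chains, *Col16a1*, which is found in skin at sites near basement membranes, was 71.4 CPM (56.8 to 88.6) in mesenchymal-like cells of WT against 90.4 CPM (76.1 to 107) in those of KO. The type IX chains *Col9a1*, *Col9a2* and *Col9a3*, known from the fibrils of cartilage, were highest in glial-like cells. *Col9a3* was 65.0 CPM (53.2 to 78.6) there in WT against 72.8 CPM (58.3 to 89.8) in KO. *Col9a1* was 15.3 CPM (9.92 to 22.6) in WT against 25.1 CPM (16.9 to 35.8) in KO, giving a log2 ratio of 0.71 (-0.10 to 1.54). *Col9a2* was 35.5 CPM (27.0 to 46.0) in WT against 19.3 CPM (12.2 to 28.9) in KO, giving a log2 ratio of -0.88 (-1.65 to -0.17), which passed 2-fold, at -1.04, with the clusters weighted as in WT. The type IX chains, which assemble into 1 molecule, thus had log2 ratios of both signs. *Col20a1*, a FACIT chain of little-known function, was 47.2 CPM (37.2 to 59.0) in glial-like cells of WT against 82.0 CPM (66.6 to 99.97) in those of KO, giving a log2 ratio of 0.80 (0.35 to 1.25), or 0.01 with the clusters weighted. After thinning, *Col9a3* and *Col20a1* were found in 10.5% and 9.29% of glial-like cells of WT, and in 10.2% and 8.94% of those of KO. In immune and blood cells these shares were 0.483% and 0.966% in WT and 0% for both chains in KO, with median depths of 3372 and 4208 UMIs in glial-like cells of WT and KO.

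The multiplexins *Col15a1* and *Col18a1* lie in basement membranes, and *Col18a1* is the precursor of endostatin. The pooled level of *Col18a1* was highest in endothelial-like cells, at 207 CPM (121 to 332; 17 UMIs) in WT against 352 CPM (209 to 557; 18 UMIs) in KO, but in WT the glial-like level was above it. Glial-like cells held *Col18a1* at 248 CPM (225 to 274) in WT against 187 CPM (163 to 213) in KO, giving a log2 ratio of -0.41 (-0.65 to -0.17). In mesenchymal-like cells it was 8.71 CPM and 15.9 CPM, so the glial-like level was 2851% of the mesenchymal-like level in WT and 1173% in KO. *Col15a1* was 85.4 CPM (34.3 to 176) in endothelial-like cells of WT against 97.8 CPM (31.8 to 228) in those of KO, and 44.1 CPM and 60.3 CPM in glial-like cells. As a family the multiplexins were 292 CPM in glial-like cells of WT against 247 CPM in those of KO, giving a log2 ratio of -0.24, while the fibrillar chains summed to 2382 CPM and 3335 CPM, giving a log2 ratio of 0.49. In mesenchymal-like cells the log2 ratio of the family sums was 0.90 (0.74 to 1.06) for the FACIT chains, from 387 CPM to 723 CPM, 0.45 for the fibrillar, 0.50 for the basement membrane and 0.51 for the beaded filament chains. With the clusters weighted as in WT these were 0.29, 0.40, 0.36 and 0.47, so among these families the FACIT value changed most with the weighting. The cause of the difference was not tested.

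**Figure D3:**
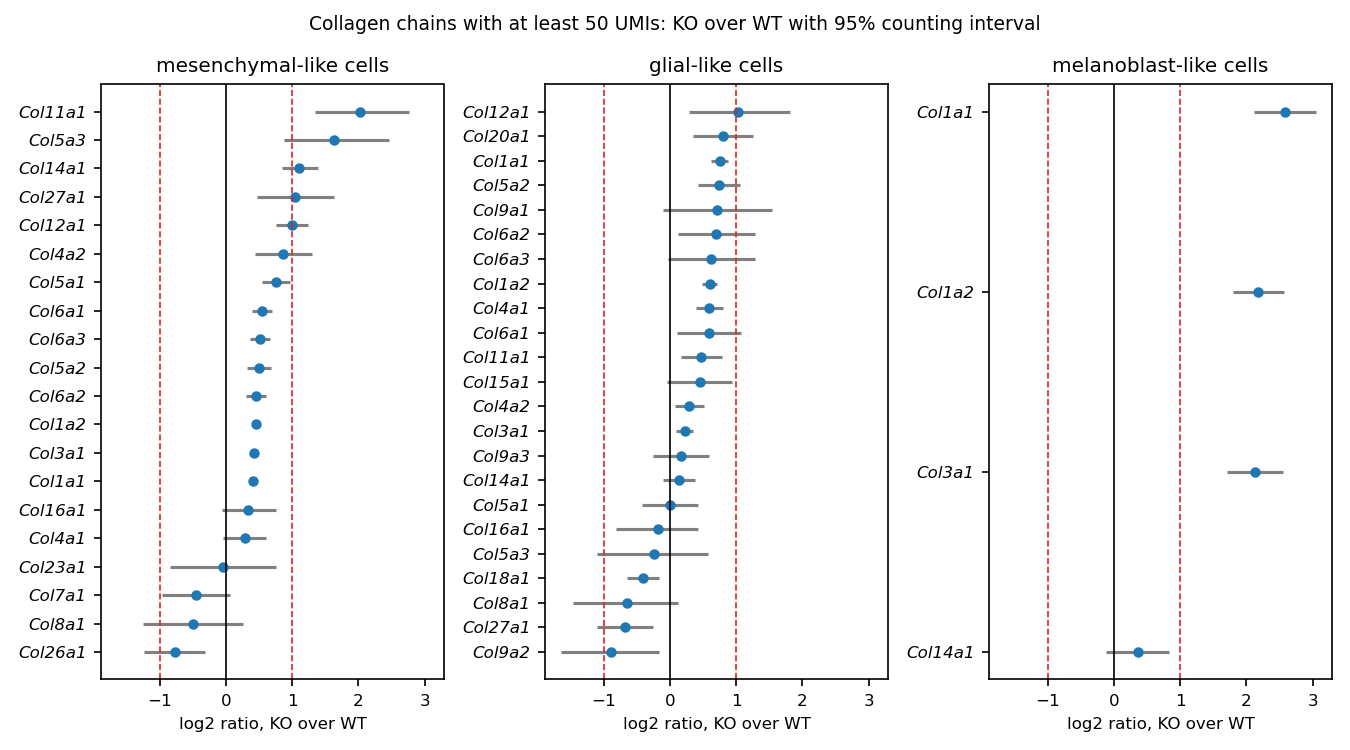
Log2 ratio of KO to WT (points) with exact 95% intervals of counting error (lines) for the chains with at least 50 UMIs in each of the 3 main classes, with dashed lines at 2-fold. *Col11a1* has the highest ratio in mesenchymal-like cells, at 2.03, and *Col26a1* the lowest, at -0.77.

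The 3 mesenchymal-like clusters differed in their chains, in contrasts chosen after the values were seen. Cluster 3 (leading genes *Crabp1*, *Twist2*, *Egfl6* and *Lum*; 174 WT and 105 KO cells) held *Col7a1* and *Col26a1*, the latter at 93.4 CPM in WT against 67.9 CPM in KO. Cluster 13 (*Mfap4*, *Aspn* and *Sfrp2*; 34 and 124 cells) held *Col14a1* at 329 CPM and 386 CPM, against 32.6 CPM and 54.0 CPM in cluster 3. *Col11a1* was 78.2 CPM and 147 CPM in cluster 13, against 6.75 CPM and 3.09 CPM in cluster 3. *Col12a1* was 268 CPM and 484 CPM in cluster 13, against 130.5 CPM and 187 CPM in cluster 3. Cluster 17 (*Mfap5*, *Ly6a* and *Clec3b*; 21 and 33 cells) had the highest summed collagen level, 28618 CPM in WT against 25682 CPM in KO, and held *Col14a1* at 772 CPM and 591 CPM. Within clusters the log2 ratio of *Col14a1* was 0.73 in cluster 3, 0.23 in cluster 13 and -0.39 in cluster 17, so the ratio was under 2-fold in each of the 3 clusters. Cluster 13 had summed mesenchymal markers of 6164 CPM and 6425 CPM and pericyte markers of 190 CPM and 362 CPM, with *Acta2* the most abundant of the latter. With at least 500 genes per cell 22 of its 158 cells kept the mesenchymal-like name, and at resolution 2 of the clustering 0 did. Of the 158 cells, 136 and 140 became unnamed at these settings.

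Glial-like cells also split, with cluster 5 (*1500015O10Rik* and *Sostdc1* among its leading genes; 104 WT and 55 KO cells) holding 65.0% of glial-like collagen UMIs in WT and 62.1% in KO. Its summed level was 8953 CPM in WT against 12558 CPM in KO, while the largest glial-like cluster, cluster 4, had 1473 CPM and 2197 CPM. In cluster 5 *Col1a2* was 2287 CPM and 3490 CPM, *Col14a1* was 422 CPM and 448 CPM, and *Col11a1* was 309 CPM and 493 CPM. Every cell of cluster 5 had collagen UMIs, with a minimum of 11 in WT and 10 in KO and a median of 32 and 54. Mesenchymal markers summed to 357 CPM and 370 CPM in cluster 5, with 12 of 12 found, against 10205 CPM and 8728 CPM in the mesenchymal-like class. The type I level of the cluster was thus a larger part of the mesenchymal-like level than its mesenchymal markers were. *Col4a1* did not follow this split, at 241 CPM and 387 CPM in cluster 5 and 266 CPM and 459 CPM in cluster 4. *Col20a1* was highest in cluster 6 (leading gene *Pou3f1*; 46 and 60 cells), at 146 CPM and 243 CPM, against 13.6 CPM and 6.84 CPM in cluster 5. In KO cluster 9 (16 cells) the mesenchymal markers summed to 859 CPM, against 71.0 CPM in WT. They were also higher in KO in clusters 4 (125 CPM in WT, 247 CPM in KO), 6 (117 and 345 CPM) and 12 (92.6 and 271 CPM). The part of these markers in the glial-like collagen levels was not tested.

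**Figure D4:**
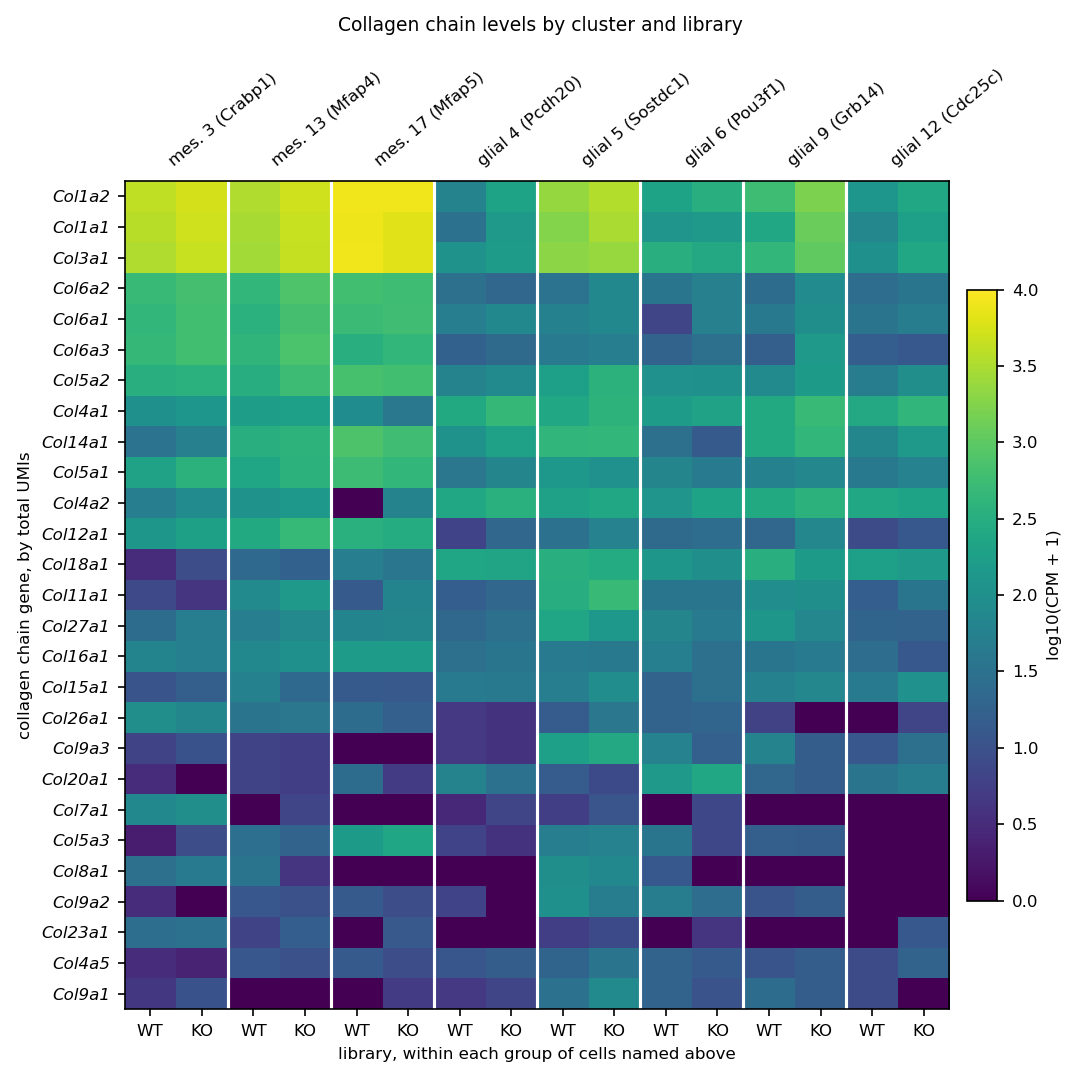
Level of the 27 chains with at least 50 UMIs in all (color, log10 of CPM plus 1) in the 3 mesenchymal-like (mes.) and the 5 glial-like clusters, with the HIRA WT and the HIRA KO library side by side. *Col14a1* and *Col11a1* are higher in cluster 13 than in cluster 3, and *Col20a1* is highest in cluster 6.

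The remaining 16 chains had 1 to 49 UMIs over both libraries and were read by their counts. *Col17a1* had 40 UMIs, *Col6a6* 39, *Col19a1* 36, *Col8a2* 32, *Col25a1* 26, *Col4a4* 21, *Col24a1* 15, *Col2a1* 10, *Col11a2* 8, *Col4a6* 7, *Col28a1* 6 and *Col13a1* 4. *Col4a3*, *Col6a4*, *Col6a5* and *Col22a1* had 1 UMI each. *Col2a1*, the main fibrillar chain of cartilage, thus had few UMIs at this depth, although other chains known from cartilage were found in glial-like cells. Of the 32 KO UMIs and 7 WT UMIs of *Col6a6*, a further beaded filament chain, all lay in mesenchymal-like cells, at 6.09 CPM in WT against 20.4 CPM in KO.

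Genes that act on collagen were read from fixed lists. Of 30 processing enzymes and chaperones, 22 could be read in mesenchymal-like cells, and 0 rose and 0 fell (3.41% and 1.22% of all genes), with a median log2 ratio of 0.27. *Serpinh1*, the collagen chaperone HSP47, was 2268 CPM in mesenchymal-like cells of WT against 2373 CPM in those of KO. *Loxl1*, a cross-linking oxidase, was 87.1 CPM and 155 CPM, giving a log2 ratio of 0.83. In glial-like cells 18 could be read, 0 rose and 1 fell, namely *P4ha2*, a prolyl hydroxylase subunit, from 48.4 CPM to 20.1 CPM, giving a log2 ratio of -1.27, with a median of 0.21 over the list (1.57% of all genes rose and 1.11% fell). *Serpinh1* was 1362 CPM (1306 to 1420) there in WT against 1076 CPM (1018 to 1137) in KO, giving a log2 ratio of -0.34 (-0.44 to -0.24). In melanoblast-like cells 9 could be read, 0 rose and 0 fell (1.64% and 1.75% of all genes), and the median was 0.15, with *Serpinh1* at 454 CPM and 482 CPM.

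Of 12 receptor genes, 11 were in the counts, and 3, 1 and 2 could be read in mesenchymal-like, glial-like and melanoblast-like cells, with 0 past 2-fold in any of them. Of all genes 3.41% rose and 1.22% fell in mesenchymal-like cells. These shares were 1.57% and 1.11% in glial-like cells and 1.64% and 1.75% in melanoblast-like cells, so counts of 0 are near them. *Itgb1*, the shared beta chain of the collagen-binding integrins, was 118 CPM and 137 CPM in mesenchymal-like cells, and *Ddr2*, a receptor kinase for fibrillar collagen, was 40.1 CPM and 42.6 CPM. Of 15 genes of laminins, nidogens, perlecan (*Hspg2*) and agrin (*Agrn*), which build basement membranes with type IV collagen, 8 could be read in mesenchymal-like cells, with a median log2 ratio of 0.44, and 1 rose (3.41% of all genes). It was *Nid2*, from 25.3 CPM to 57.3 CPM, giving a log2 ratio of 1.18. In glial-like cells 8 of these genes could be read, with a median of -0.18, and 0 passed 2-fold (1.57% of all genes rose and 1.11% fell). In melanoblast-like cells 5 could be read, with a median of 0.01, and 0 passed 2-fold (1.64% of all genes rose and 1.75% fell).

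Several chain genes lie side by side in the genome (GENCODE M21, GRCm38). *Col4a1* and *Col4a2* lie head to head on chromosome 8, with a gap of -22 bases, meaning that their annotated ends overlap. The pairs *Col4a4* and *Col4a3* on chromosome 1 and *Col4a6* and *Col4a5* on chromosome X are also head to head, 71 and 1308 bases apart. *Col3a1* and *Col5a2* lie 24614 bases apart on chromosome 1 on opposite strands, and their log2 ratios in mesenchymal-like cells were 0.43 and 0.49. *Col6a2* and *Col6a1* lie 85161 bases apart on chromosome 10, with log2 ratios of 0.46 and 0.54 in mesenchymal-like cells. These 4 values lie near the median of 0.47 over the 20 chains read in that class. The overlapping pair *Col4a1* and *Col4a2* had log2 ratios of 0.28 and 0.86 there. Whether neighbors change together was not tested. Neighbors did not always share a class, since *Col18a1*, 326009 bases from *Col6a1*, was low in mesenchymal-like cells.

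Promoter sequences from RefSeq (GRCm38.p6) were found for 34 of the 43 chains, in 37 windows of 250 bases upstream of a start. Motifs were searched on both strands. A chain was counted when any of its windows had a match, while the share over all promoters is per window, so the units differ. The motif CCAAT, which on the opposite strand is read as ATTGG, was found for 13 chains (38.2%), against 33.8% of all 32851 promoter windows. The motif TATAAA, which on the opposite strand is read as TTTATA, was found for 4 chains (11.8%, against 12.4%), namely *Col3a1*, *Col11a2*, *Col13a1* and *Col17a1*. The motif GGGCGG, which on the opposite strand is read as CCGCCC, was found for 21 chains (61.8%, against 32.7%). A match is a description of the sequence and not a site shown to be bound. The last 150 bases before the start are printed 5′ to 3′ for *Col11a1* (chr3:114030390-114030539, plus strand) and *Col5a3* (chr9:20815068-20815217, minus strand), the chains with the highest log2 ratios in mesenchymal-like cells among those with at least 50 UMIs there, and for *Col3a1* (chr1:45311388-45311537, plus strand), the abundant fibrillar chain with a TATAAA match. Capitals mark the motif matches.
Col11a1: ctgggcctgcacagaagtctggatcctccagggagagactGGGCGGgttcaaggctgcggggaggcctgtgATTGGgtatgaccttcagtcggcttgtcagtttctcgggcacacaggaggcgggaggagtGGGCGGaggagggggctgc
Col5a3: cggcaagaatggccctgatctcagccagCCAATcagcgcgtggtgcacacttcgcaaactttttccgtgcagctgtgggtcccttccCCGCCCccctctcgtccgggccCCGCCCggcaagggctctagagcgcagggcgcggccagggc
Col3a1: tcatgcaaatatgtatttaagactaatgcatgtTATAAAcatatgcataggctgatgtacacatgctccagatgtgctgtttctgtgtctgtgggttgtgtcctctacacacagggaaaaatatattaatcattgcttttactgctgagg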

How the data were processed

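The authors counted UMIs per gene and barcode with Cell Ranger 2.2.0 on a mouse genome (mm10) extended by tdTomato and Cre, per the processing notes of the deposited data, and the UMI counts of 1 HIRA WT and 1 HIRA KO library were used without normalization. Barcodes with under 100 genes, over 40000 UMIs or over 10% mitochondrial UMIs were left out (6 WT, 18 KO). Genes found in fewer than 3 cells were dropped, each cell was scaled to a total of 10000 and logged, and the 2000 most variable genes were taken. Among them 25 collagen, *Hira* complex, histone H3.3, sex-linked and reporter genes were held out, and the other 1975 went into a joint Leiden clustering of the libraries (30 principal components, 15 neighbors, resolution 1, seed 0), which gave 20 clusters. A marker was raised in a cluster when 10% or more of the cells had a UMI of it and it stood 1 log2 unit or more above the other cells after 10 CPM had been added to both. A cluster took the class of 14 with the largest share of raised markers, with at least 3 raised, and stayed unnamed where its 10 leading genes held more markers of another class, and 11 classes were found. Doublets were kept. Scrublet marked 9 cells of WT and 6 of KO, and leaving these out was tried as an alternative.

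UMIs were summed per class and library and scaled to CPM. Levels have exact Poisson intervals, shares exact Clopper-Pearson intervals and ratios exact conditional binomial intervals, all at 95%, and a count of 0 allows a level of up to 3 counts. With 1 library for each genotype no test was run. Ratios were read from 50 UMIs per class upward and counted at 2-fold or more. The code was tested on simulated data. The tools were igraph 0.11.9, scanpy 1.11.5, numpy 2.4.6, anndata 0.12.19, pandas 2.3.3, scipy 1.17.1, matplotlib 3.10.9 and Python 3.11.15.

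Every chain with at least 50 UMIs over both libraries (27 chains) was named with its level in the class where it was highest among those with at least 100000 UMIs over both libraries, as were the chains at or past 2-fold in a class. The chains *Col1a1*, *Col1a2*, *Col3a1*, *Col4a1*, *Col4a2*, *Col5a1*, *Col5a2*, *Col6a1*, *Col6a2* and *Col6a3* were named in each of the 3 main classes where they passed the minimum. Contrasts between clusters, the unnamed cluster, the immune and blood cells with 10 or more collagen UMIs and the cells with a *Tnmd* or *Scx* UMI were picked with their values in view. The members and the gene lists were chosen with earlier results of these data known. The alternatives changed the filter on genes per cell, the resolution, the genes used in clustering, the doublets, the depth per cell, the averaging, the UMI minimum, the centering of ratios, the background cells and fold, and the subtraction of the background. Single-cell libraries other than these, and bulk measurements of the study, were not used here. Results for some single genes of the marker lists do not appear here.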

Additional observations from a re-analysis of the deposited data

Results flagged for a closer look

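*Col27a1* was picked out because its KO to WT ratio had opposite signs in 2 classes of the same libraries, with both intervals apart from 0. Its log2 ratio was -0.68 in glial-like cells (94.99 CPM in WT, 59.4 CPM in KO) and 1.04 in mesenchymal-like cells (31.3 CPM in WT, 64.3 CPM in KO). The difference was not tested.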

How the results depend on the processing

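Of 557 values recomputed under an alternative, 448 stayed within their limits, 104 moved past them and 5 reversed, and 345 of 357 log2 ratios of single chains or sums kept their sign. No paired analysis was possible because there is 1 library for each genotype. Where a count of chains stands below without a share of all genes, that share is not given for the same setting. Such a count is not read against all genes. With the immune and blood level subtracted, the log2 ratio of the glial-like sum was -0.11 and that of the mesenchymal-like sum 0.36. The counts of chains past 2-fold were then 0 higher in melanoblast-like cells (34.0% of all genes), and 0 higher (27.3%) and 3 lower (5.72%) in glial-like cells. In mesenchymal-like cells 4 were higher (31.8%) and 2 lower (7.44%). The glial-like log2 ratio was then -1.16 for *Col3a1*, -0.0309 for *Col1a2*, -0.83 for *Col6a1* and -0.25 for *Col12a1*. For the melanoblast-like sum this setting gave no value, because the level was at or below 0.

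With a minimum of 20 UMIs, 11 of 13 chains were higher in melanoblast-like cells (3.82% of all genes) and 2 of 26 in glial-like cells (3.85% of all genes). Of the chains this added in melanoblast-like cells, *Col5a1*, *Col5a2*, *Col6a1*, *Col6a2*, *Col6a3* and *Col12a1* stood below the immune and blood level in KO. *Col4a2* was 1.31-fold that level there and *Col27a1* 4.30-fold, the latter from 9 UMIs. With a minimum of 1 UMI, 18 of 30 chains were higher and 4 lower in melanoblast-like cells (15.6% and 17.6% of all genes), 11 and 1 of 37 in glial-like cells (17.1% and 11.5%), and 12 and 1 of 38 in mesenchymal-like cells (20.5% and 11.03%). The chains added by this minimum each had fewer than 20 UMIs in the class over both libraries. With a minimum of 200 UMIs, 0 of 10 were higher in glial-like cells (0.926% of all genes) and 1 of 13 in mesenchymal-like cells (2.73%). Cells thinned to 2000 UMIs gave 0 chains above immune cells in KO melanoblast-like cells, glial-like sums of 3578 CPM and 4654 CPM with 0 chains higher, and mesenchymal-like sums of 16050 CPM and 20842 CPM, a log2 ratio of 0.38, with 1 chain higher. The mean of each cell's CPM gave a KO glial-like sum of 4568 CPM, a log2 ratio of 0.31, and mesenchymal-like sums of 16164 CPM and 20562 CPM, a log2 ratio of 0.35, with 2 chains higher.

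Without Scrublet doublets the KO glial-like sum was 4706 CPM with 0 chains higher, and the WT mesenchymal-like sum was 15194 CPM, a log2 ratio of 0.41. With at least 500 genes per cell the mesenchymal-like sums were 14171 CPM and 18674 CPM, a log2 ratio of 0.40, with 1 chain higher. They were 14835 CPM and 19796 CPM (log2 ratio 0.42) at resolution 0.5, 15006 CPM and 20658 CPM with 2 chains higher at resolution 2, and 14835 CPM and 19807 CPM (log2 ratio 0.42) with collagen genes left in the clustering. Of the 158 cells of cluster 13, 136 were unnamed at the 500-gene setting and 140 at resolution 2. The sums of those settings leave these cells out. A 2-fold limit put 18 chains above background in KO glial-like cells.

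Other alternatives were chosen after seeing the data. With at least 25 UMIs in each library 2 of 18 chains were higher in mesenchymal-like cells (1.62% of all genes), and with at least 50 in each 1 of 15 was (1.32%), and 0 of 15 in glial-like cells (0.828%). With the KO clusters weighted as in WT, the log2 ratio was 0.56 for the glial-like sum, with 1 chain lower, and 0.40 for the mesenchymal-like sum, with 0 chains higher. Glial-like cells without cluster 5 had a log2 ratio of 0.48 and 2 chains higher, and mesenchymal-like cells without cluster 13 had 2 chains higher. The number of chains read and the share of all genes higher are not given for these cells. With the immune level subtracted after leaving out immune and blood cells with 10 or more collagen UMIs, the glial-like sum had a log2 ratio of 0.30 with 0 chains higher (30.4% of all genes), and 1 chain was higher in melanoblast-like cells (37.9%). The glial-like log2 ratio was then 0.47 for *Col1a2* and 0.0195 for *Col3a1*. In mesenchymal-like cells the family sum of FACIT chains had a log2 ratio of 0.29 with the clusters weighted, against 0.90 without. The cause of these shifts was not tested. Depth limits the glial-like and melanoblast-like values of chains with few UMIs, and genotype, embryo and sex cannot be told apart with 1 library each.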

Other observations

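Mesenchymal-like cells with a UMI of the tendon genes *Tnmd* or *Scx* (23 cells in WT, 27 in KO), a split chosen after values were seen, had more *Col11a1* than the others. With such a UMI it stood at 130 CPM (74.4 to 211) for WT and 232 CPM (162 to 323) for KO, against 4.88 CPM (1.58 to 11.4) and 57.7 CPM (45.9 to 71.7) with neither. *Col12a1* was 383 CPM and 504 CPM with such a UMI, and 141 CPM and 314 CPM with neither. *Col14a1* was 423 CPM and 338 CPM with such a UMI, against 95.6 CPM and 276 CPM with neither. *Col8a2*, a short chain, was 40.7 CPM and 39.8 CPM with such a UMI, and 1.95 CPM and 10.6 CPM with neither. The median depth was 4564 and 4552 UMIs in the cells with such a UMI, and 4442.5 and 5562 UMIs in the others.

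Adipocyte-like cells (33 in WT, 2 in KO) held *Col15a1* at 42.0 CPM in WT (16 UMIs) and 191 CPM in KO (8 UMIs), and had a summed collagen level of 745 CPM and 2010 CPM. In keratinocyte-like cells *Col1a2* had 0 UMIs in WT, which allows a level of up to 36.1 CPM. It was 203 CPM there in KO, below the immune and blood level of 532 CPM in the same library. Without the few immune and blood cells rich in collagen UMIs described above, the KO immune and blood level was 135 CPM. The keratinocyte-like level of 203 CPM was above this, so its place relative to the background depended on a few background cells.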
